A study of Apis mellifera ligustica with 11 samples.

Results

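Brains of Apis mellifera ligustica, the Italian honeybee, sampled 10 days after exposure to fluvalinate were compared with brains sampled 1 day before it. The comparison uses 5 of the 11 labelled RNA-seq libraries of the series, chosen by the sampling time in their labels: 2 of day 10 (replicates 2 and 3) and 3 of before exposure (replicates 1, 2 and 3). The other 6 libraries, of days 20 and 30, enter only the estimate of the spread. Bees of day 10 came from groups given fluvalinate at the usual dose for bees, with mite treatment every 7 days. Bees of before exposure carry the control title and were taken ahead of that treatment. Both groups share the subspecies, the tissue, the removal of royal jelly glands and pigments from the brain, and the Trizol extraction of total RNA. The labels give no age, caste, colony or number of brains for a library, so a p-value reflects only how far these libraries spread, which may be technical. No unexposed brain of day 10 was analysed here. Exposure, the time that passed and any difference between the control and test sets of the treatment protocol therefore cannot be told apart.

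Fluvalinate is a pyrethroid that beekeepers place in hives against Varroa mites. Pyrethroids bind voltage-gated sodium channels of nerve cells and delay their closing, which prolongs the firing of the cell. In the insect brain acetylcholine is the main fast excitatory transmitter and GABA the main inhibitory one, and the mushroom bodies, densely packed with neurons, serve learning and memory. The hypopharyngeal glands, which make the proteins of royal jelly in nurse bees, lie in the head beside the brain. The values are FPKM, fragments scaled by transcript length and by the mapped fragments of the library, so each describes a gene's share of its library. In bulk tissue, fewer cells of a type and less RNA per cell cannot be told apart.

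The libraries of day 10 held more FPKM than those of before exposure. Their sums were 468358 and 393632 FPKM at day 10, against 264416, 291027 and 292768 FPKM before exposure. Low values fell on steps of whole fragments, from which the depth of each library relative to the others was estimated, without an independent check. Taking before-exposure replicate 1 as 1, the depth was 1.15 and 1.56 at day 10, and 0.88 and 1.16 in before-exposure replicates 2 and 3. The absolute depth is unknown. The median gene changed by -0.18 on the log2(FPKM + 1) scale as deposited, and by 0.02 after median-of-ratios scaling. Log2 changes below are day 10 over before exposure on that scale, relative to the median gene, with the standard error (SE) of the fit. The adjusted p beside a change, and every call, test the change as deposited with limma and Benjamini-Hochberg adjustment over the 7830 genes that averaged 1 FPKM or more across the 11 libraries. A gene is said to have risen or fallen, or to have passed, when its adjusted p was under 0.05.

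More genes fell than rose at day 10. Of the 7830 genes, 174 rose (2.22%) and 1326 fell (16.9%), and with median-of-ratios scaling 311 rose (3.97%) and 466 fell (5.95%). Under both scalings 170 genes rose (2.17%) and 466 fell (5.95%). All 3 before-exposure libraries lay on the same side of both day 10 libraries in 173 of the 174 and in 1325 of the 1326 genes. A lack of overlap in a gene that passed therefore adds no support to its call. Over all genes both day 10 libraries lay above the other 3 in 9.74% and below them in 38.3%. The size of the change depended on the library: 148 of the 174 genes that rose and 1120 of the 1326 that fell lay farther from the before-exposure mean in day 10 replicate 2 than in replicate 3. Relative to the median gene of each library, the genes that rose had a median of 1.41 in day 10 replicate 2 and 1.10 in replicate 3, and those that fell had -0.65 and -0.41. With day 10 replicate 2 left out, so that day 10 has 1 library, only 2 genes passed (0.0255%), LOC724936, an uncharacterized gene, and LOC725131 (futsch), and 1288 had an unadjusted p under 0.05. Without day 10 replicate 3, 1619 passed (20.7%). The calls numbered 958 without before-exposure replicate 1 and 917 without replicate 3. Every count of calls given below thus rests on day 10 replicate 2, and without it no gene list kept a call other than that of futsch.

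**Figure D1:**
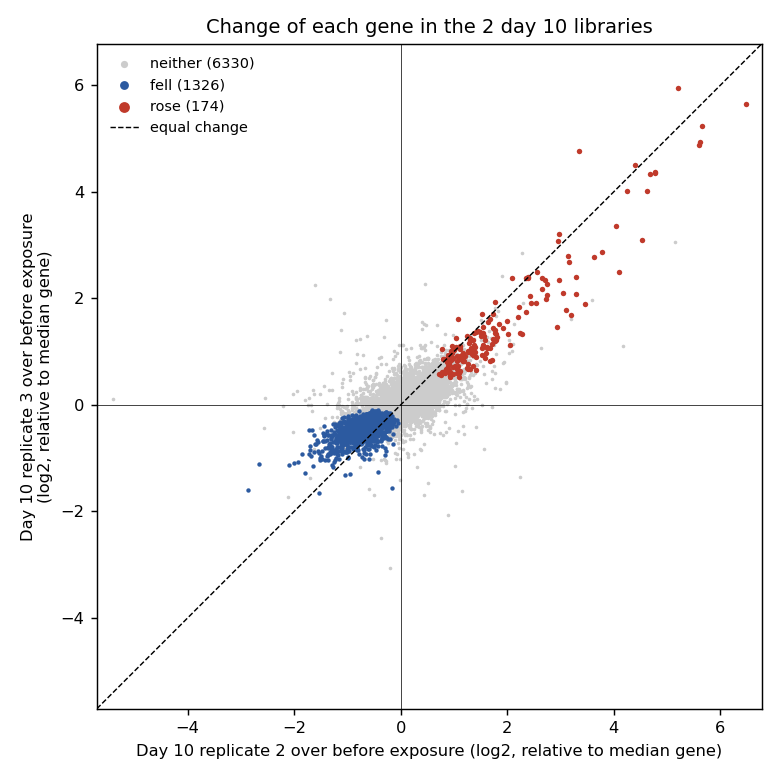
Log2 change of each of the 7830 genes in day 10 replicate 2 (horizontal axis) and in day 10 replicate 3 (vertical axis), each against the mean of the 3 before-exposure libraries and relative to that library's median gene. Red points are the 174 genes that rose, blue points the 1326 that fell and grey points the rest; the dashed line marks equal change, and most coloured points lie closer to the horizontal axis than that line.

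Nerve cell transcripts were present in all 5 libraries, as the label brain requires. Syt1, a calcium sensor of synaptic vesicles, had 74 and 114 FPKM at day 10, against 175, 160.0 and 166 FPKM before exposure. LOC408934, choline acetyltransferase, which makes acetylcholine, had 9.64 and 21.6 FPKM at day 10, against 24.1, 34.1 and 18.1 FPKM before exposure. Its groups overlapped and it did not pass (adjusted p = 0.156). Markers of other tissues were counted as whole lists. Of 16 tested hypopharyngeal gland markers 8 rose, against 2.22% of all genes, and none fell. Their sum was 153448 to 229756 FPKM at day 10, against 15333 to 27755 FPKM before exposure. Of 25 haemocyte markers 7 fell, with sums of 512 to 528 FPKM at day 10 and 607 to 727 FPKM before exposure. Of 9 glial markers 3 fell (33.3%), with sums of 1760 to 2231 FPKM at day 10 and 2332 to 3133 FPKM before exposure. Most of these sums came from GlnS (glutamine synthetase), which did not pass (adjusted p = 0.264). GlnS had 1560 and 1997 FPKM at day 10, against 2835, 2057 and 2482 FPKM before exposure. With median-of-ratios scaling no gene of the haemocyte or glial list fell, and without before-exposure replicate 3 as deposited 2 and 0 did. Sums of the venom gland list (4 rose and 3 fell of 17), of muscle (2 of 30 fell), of photoreceptors (4 of 14 fell) and of fat body (1 rose and 1 fell of 10) overlapped between the groups. Falls made up 17.6%, 6.67%, 28.6% and 10.0% of these 4 lists. Rises made up 23.5% of the venom gland list and 10.0% of the fat body list, against 2.22% of all genes. The 9 mitochondrially encoded transcripts, none of which passed as deposited and 1 with median-of-ratios scaling, had a median change of 1.04, with 1.74 in day 10 replicate 2 and 0.52 in replicate 3. Their list sums overlapped, at 6368 to 8209 FPKM at day 10 and 5366 to 6840 FPKM before exposure. These sums were 1.62% to 1.75% of all FPKM at day 10 and 2.03% to 2.35% before exposure. The gland list thus differed in the same libraries as every gene group below, and the part of the gland and mitochondrial levels in those results was not tested.

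The gland products accounted for the gain in summed FPKM. The mean sum was 430995 FPKM at day 10 and 282737 FPKM before exposure, a difference of 148258 FPKM. Mrjp1, the main protein of royal jelly, made up 52.4% of that difference, LOC406093 (apisimin, a small royal jelly peptide that binds Mrjp1) 37.0% and Mrjp2 11.5%. LOC406081 (glucose oxidase, which makes hydrogen peroxide in honey and jelly) made up 3.96% and Hbg3, a glandular alpha-glucosidase, 3.87%. These 5 came to 109% of the difference, so all other genes together summed lower at day 10. Mrjp1 had 96898 and 68894 FPKM at day 10, against 2347, 8378 and 5078 FPKM before exposure. Apisimin had 78596 and 46747 FPKM at day 10, against 9537, 8651 and 5039.9 FPKM before exposure. Both day 10 libraries lay well above the other 3 in both genes. Apisimin rose by 3.20 ± 0.77 (adjusted p = 0.0191) and glucose oxidase by 2.69 ± 0.59 (adjusted p = 0.0142).

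**Figure D2:**
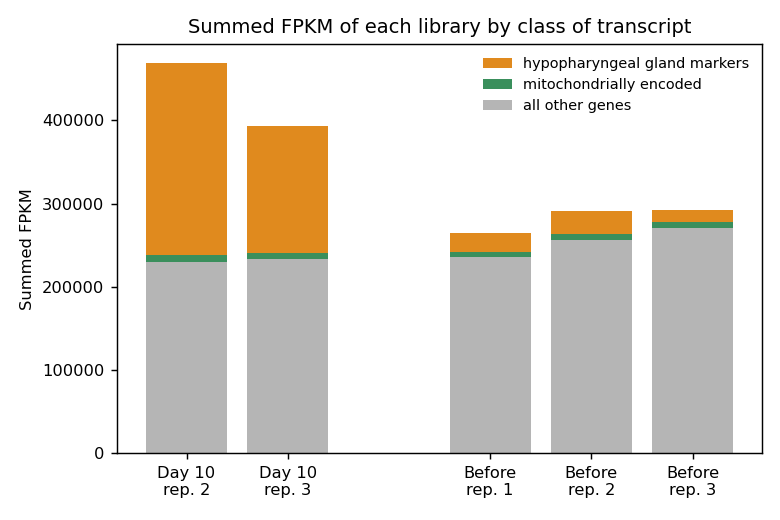
Summed FPKM of each library, day 10 to the left of before exposure, split into hypopharyngeal gland markers (orange), mitochondrially encoded transcripts (green) and all other genes (grey). Gland markers made up 39% to 49.1% of the sum at day 10 and 5.24% to 9.54% before exposure.

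A defence peptide and a protease inhibitor-like gene were also far higher in both day 10 libraries. Def1 (defensin 1, an antimicrobial peptide of haemolymph and royal jelly) had 5584 and 3254 FPKM at day 10, against 789, 798 and 483 FPKM before exposure, and rose by 2.84 ± 0.66. LOC113218518, a chymotrypsin inhibitor-like peptide, had 6352 and 3636 FPKM at day 10, against 518, 662 and 467 FPKM before exposure. It rose by 3.32 ± 0.74 (adjusted p = 0.0138). The 2 genes stood well apart between the groups, and their day 10 values differed by less than 2-fold. LOC406142 (hymenoptaecin) and the chymotrypsin inhibitor LOC725114, whose levels are given further on, did not pass. Mrjp9, the family member known also from bee venom, was far scarcer at 27.3 and 21.1 FPKM at day 10 and 4.39, 4.67 and 3.92 FPKM before exposure. It rose by 2.41 ± 0.32, with the before-exposure libraries close together. Because the Mrjp genes resemble each other in sequence, the split of fragments among them is uncertain.

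Secreted or extracellular enzymes were among the genes that rose. LOC551044, a glucose dehydrogenase, had 183 and 148 FPKM at day 10, against 5.77, 8.79 and 6.39 FPKM before exposure. LOC406146, a hyaluronidase, which cuts hyaluronan and is a venom spreading factor, had 11.9 and 10.5 FPKM at day 10, against 2.85, 3.85 and 4.16 FPKM before exposure (1.59 ± 0.22, adjusted p = 0.00568). LOC409143, venom serine protease 34, had 142 and 50 FPKM at day 10, against 9.20, 14.9 and 4.99 FPKM before exposure, a wide gap within day 10. Venom-named genes moved both ways, although none fell with median-of-ratios scaling or without before-exposure replicate 3. LOC409468 (venom metalloproteinase 3) fell to 56.0 and 64.2 FPKM at day 10, against 93.7, 85.3 and 96.9 FPKM before exposure. LOC503505 (venom protein 2) had 3050.4 and 3619.5 FPKM at day 10 and 3671, 3619 and 3947 FPKM before exposure. Of the venom gland's defining peptides, apamin was listed at 0 in all 5 libraries, and Melt (melittin) had 15.4 and 4.71 FPKM at day 10, against 0.23, 0.39 and 1.38 FPKM before exposure.

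Some genes that feed proteins into the endoplasmic reticulum (ER) rose. Secreted and membrane proteins are brought to the ER by the signal recognition particle, threaded through the translocon and trimmed by signal peptidase. Of 22 genes of this list 5 rose (22.7%, against 2.22% of all genes) and none fell, and 21 lay above the median gene, with a list median of 0.47. LOC552295, translocon-associated protein subunit gamma, had 42.8 and 37.3 FPKM at day 10, against 18.8, 25.7 and 23.1 FPKM before exposure, and rose by 0.99 ± 0.18. LOC552227, subunit delta of the same complex, had 59.0 and 57.1 FPKM at day 10, against 31.1, 40.5 and 41.1 FPKM before exposure. LOC410218, a signal peptidase complex subunit, had 57.6 and 45 FPKM at day 10 and 26.3, 36.3 and 34.7 FPKM before exposure. LOC552776, signal recognition particle subunit SRP68, had 16.0 and 14.6 FPKM at day 10 and 8.81, 11.6 and 9.66 FPKM before exposure. In all 4 genes both day 10 libraries lay above the 3 others, as in 173 of the 174 genes that rose. With median-of-ratios scaling 8 rose, against 3.97% of all genes. As deposited the count was 2 without before-exposure replicate 1 or replicate 3, 3 without day 10 replicate 3 and 6 without before-exposure replicate 2.

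Of 27 ER folding and glycosylation genes 3 rose (11.1%, against 2.22% of all genes) and none fell, with a median of 0.36. With median-of-ratios scaling 6 rose, against 3.97% of all genes. LOC551535 (ero1-like protein, which passes oxidising power to protein disulfide isomerase) had 33.7 and 38.5 FPKM at day 10, against 18.8, 22.8 and 19.3 FPKM before exposure, and rose by 0.98 ± 0.16 (adjusted p = 0.00891). LOC552645, the homolog of the ER-stress factor MANF, had 10.6 and 12.1 FPKM at day 10, against 5.26, 7.53 and 7.83 FPKM before exposure. LOC552373, dolichyldiphosphatase 1, which recycles the lipid carrier of N-linked sugars, had 3.17 and 2.54 FPKM at day 10 and 1.29, 1.68 and 1.05 FPKM before exposure. The count was 1 without before-exposure replicate 1 or day 10 replicate 3. Downstream of the ER, none of 40 genes of the COPI and COPII coats and ER to Golgi transport passed as deposited, although 35 lay above the median gene with a median of 0.23. With median-of-ratios scaling 4 of the 40 rose, against 3.97% of all genes. LOC413394 (SEC22b-B, a vesicle fusion protein of that step) had 36.0 and 36.1 FPKM at day 10, against 26, 31.0 and 27.9 FPKM before exposure (adjusted p = 0.0737).

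Protein synthesis genes leaned upward relative to the median gene, yet no ribosomal protein or tRNA synthetase gene passed as deposited. None of 79 cytosolic ribosomal protein genes passed as deposited, 78 lay above the median gene and the median was 0.34. The least p among them belonged to LOC550715 (ribosomal protein L12), with 185 and 158 FPKM at day 10, against 107, 126 and 138 FPKM before exposure (adjusted p = 0.0540). Of 72 mitochondrial ribosomal protein genes none passed, with a median of 0.37, and none of 35 aminoacyl-tRNA synthetase genes did, with a median of 0.24. Median-of-ratios scaling called 2, 6 and 0 genes of these 3 lists higher and none lower, against 3.97% and 5.95% of all genes. Sums of all 3 lists overlapped between the groups. The cytosolic list summed to 20073 and 17105.5 FPKM at day 10, against 13358, 17087 and 19736 FPKM before exposure. Both day 10 libraries lay above the other 3 in 8, 15 and 2 genes of these lists, against 9.74% of all genes. Of 43 proteasome subunits 1 rose, LOC411520 (subunit beta type-4), with 67.6 and 57.3 FPKM at day 10 and 32.3, 30.8 and 42.1 FPKM before exposure, and 6 rose with median-of-ratios scaling. None of 49 nuclear oxidative phosphorylation genes passed.

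The oxidative arm of the pentose phosphate pathway, which makes NADPH for lipid synthesis and antioxidant defence, was higher at day 10. Of 7 genes of the pathway 4 rose (57.1%, against 2.22% of all genes) and none fell, with a median of 0.79. LOC725325 (glucose-6-phosphate dehydrogenase, the entry enzyme) had 18.9 and 17.2 FPKM at day 10, against 6.36, 9.06 and 8.99 FPKM before exposure, a change of 1.25 ± 0.28. LOC552712 (6-phosphogluconate dehydrogenase, the next oxidation) had 151 and 99.7 FPKM at day 10, against 47.5, 65.2 and 64.3 FPKM before exposure, a change of 1.23 ± 0.28. In both, the lower day 10 library was above every before-exposure library, as in 173 of the 174 genes that rose. The sugar-shuffling enzymes of the pathway rose too. LOC550804 (transketolase) had 164 and 109.9 FPKM at day 10, against 35.4, 58.2 and 50.5 FPKM before exposure, and LOC413867 (transaldolase) had 139 and 113 FPKM at day 10, against 66.8, 87.5 and 93.5 FPKM before exposure. None of the 4 passed without before-exposure replicate 1.

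Genes of fatty acid synthesis, elongation, desaturation and reduction were mixed, with 8 of 29 higher (27.6%, against 2.22% of all genes) and 2 lower (6.90%, against 16.9%). The list median was 0.52. The 8 include a fatty-acid amide hydrolase, a gene matched by its name. LOC412815 (fatty acid synthase) had 574 and 452 FPKM at day 10, against 169.7, 232 and 188 FPKM before exposure, and rose by 1.56 ± 0.26 (adjusted p = 0.00673). FAR1, a fatty acyl-CoA reductase that makes fatty alcohols, had 287 and 269 FPKM at day 10, against 94.0, 124 and 129.8 FPKM before exposure. LOC724552, an elongase of very long chain fatty acids, had 78.1 and 28.9 FPKM at day 10, against 5.01, 11.1 and 13.3 FPKM before exposure, with a gap of more than 2-fold within day 10. LOC725146 and LOC100577192, the enoyl reductase and the dehydratase of the same elongation cycle, rose by 1.34 ± 0.25 and 1.43 ± 0.34. The dehydratase is counted in the beta-oxidation list below and is not among the 8. The enoyl reductase had 115 and 85.4 FPKM at day 10 and 32.4, 49.7 and 51.3 FPKM before exposure. The 2 that fell were both acyl-CoA Delta(11) desaturases, enzymes that place a double bond in fatty acids. LOC552417 had 415 and 398 FPKM at day 10, against 576, 668 and 664 FPKM before exposure, and LOC107965749 had 17.3 and 16.1 FPKM at day 10, against 20.7, 28.9 and 27.1 FPKM before exposure. Neither desaturase passed with median-of-ratios scaling, nor without before-exposure replicate 2 or 3 or day 10 replicate 3. The count of genes that rose was 4 without before-exposure replicate 1 or day 10 replicate 3, and 5 without before-exposure replicate 3.

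Of 40 genes named for fatty acid beta-oxidation and peroxisomes 4 rose (10.0%, against 2.22% of all genes) and none fell, with a median of 0.33. However, the elongation enzymes LOC725146 and LOC100577192 are 2 of those 4. LOC408291, a 3-ketoacyl-CoA thiolase of the mitochondrion, which performs the last cut of beta-oxidation, had 23.1 and 16.2 FPKM at day 10, against 4.72, 4.21 and 4.81 FPKM before exposure. It rose by 2.05 ± 0.42 (adjusted p = 0.0117). LOC551241 (PMP34, a carrier of cofactors across the peroxisomal membrane) had 159 and 119 FPKM at day 10, against 55.5, 60.9 and 66.2 FPKM before exposure. Malic enzymes, which also make NADPH, split by gene. LOC411813 rose, with 181 and 134 FPKM at day 10, against 71.8, 93 and 108 FPKM before exposure. LOC409682 fell, with 21.8 and 41.6 FPKM at day 10, against 77.2, 51 and 54.6 FPKM before exposure, but did not pass with median-of-ratios scaling. LOC412843 (phosphoenolpyruvate carboxykinase, the gate of gluconeogenesis) was scarce and rose by 1.39 ± 0.21, with 2.28 and 2.45 FPKM at day 10 and 0.44, 0.54 and 0.38 FPKM before exposure.

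Some lipid carriers and lysosomal enzymes rose. Clavesins and alpha-tocopherol transfer protein-like genes encode proteins with a lipid-binding CRAL-TRIO fold. Of 8 such genes 3 rose (37.5%, against 2.22% of all genes) and none fell. LOC552447 (clavesin-2) had 412 and 346 FPKM at day 10, against 46.0, 109 and 79.2 FPKM before exposure, and rose by 2.52 ± 0.40. LOC408361, an alpha-tocopherol transfer protein-like gene, had 187 and 145 FPKM at day 10, against 43.8, 69.7 and 62.4 FPKM before exposure. A4 (an apolipophorin-III-like protein, an exchangeable lipid carrier of the haemolymph) had 667 and 269.7 FPKM at day 10, against 20.8, 41.0 and 42.9 FPKM before exposure. It passed as deposited (adjusted p = 0.0339) and not with median-of-ratios scaling. Of the 3 CRAL-TRIO genes 2 passed without before-exposure replicate 1 or replicate 3. Of 24 lysosomal enzymes 2 rose (8.33%, against 2.22% of all genes) and 3 fell (12.5%, against 16.9%). LOC409708, a glucosylceramidase-like gene, had 674 and 572 FPKM at day 10, against 83.5, 115 and 73.8 FPKM before exposure, and LOC552249 (lysosomal alpha-mannosidase, which trims mannose from glycoproteins) had 52.7 and 56.5 FPKM at day 10, against 20.7, 25.9 and 24.2 FPKM before exposure. The mannosidase rose by 1.36 ± 0.15 with little spread in either group. LOC727146 (sphingomyelin phosphodiesterase, which frees ceramide) fell by 0.69 ± 0.13 on the log2 scale, with 77.7 and 88.4 FPKM at day 10 and 147, 148 and 162 FPKM before exposure.

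**Figure D3:**
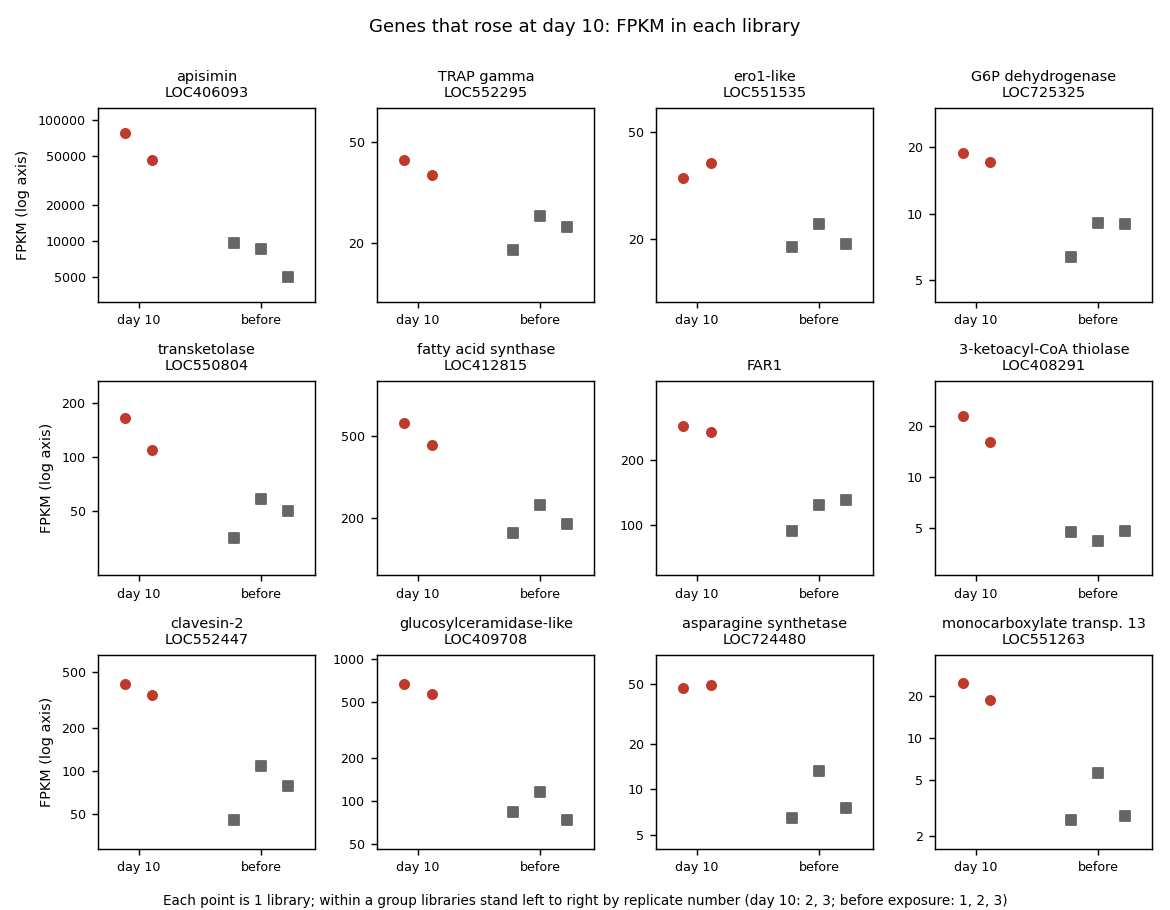
FPKM on a log axis of 12 genes that rose, with the 2 day 10 libraries (red) left of the 3 before-exposure libraries (grey) in each panel. The 12 were drawn from genes whose groups do not overlap, so in all of them the lower day 10 value lies above the highest before-exposure value.

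Amino acid metabolism gave 4 genes that rose and 4 that fell of 33, 12.1% in each direction, against 2.22% and 16.9% of all genes. LOC724480 (asparagine synthetase, which in mammals is induced when amino acids run short) had 47.5 and 49.1 FPKM at day 10, against 6.48, 13.3 and 7.49 FPKM before exposure, and rose by 2.53 ± 0.42. All the others that rose lie on tryptophan and kynurenine breakdown. LOC410828 (tryptophan 2,3-dioxygenase, the first step) had 6.13 and 5.33 FPKM at day 10, against 1.96, 2.71 and 3.90 FPKM before exposure. LOC724239, a kynurenine/alpha-aminoadipate aminotransferase, had 23.5 and 70.3 FPKM at day 10, against 0.53, 4.33 and 1.80 FPKM before exposure, and here replicate 3 was the higher day 10 library. LOC724811, a kynurenine transaminase 3-like gene, changed least, with 27.6 and 27.0 FPKM at day 10 and 18.9, 21.4 and 18.1 FPKM before exposure. The 4 that fell were 3 enzymes of proline turnover and 1 aminotransferase. LOC411808 (proline dehydrogenase, which starts proline oxidation, a fuel of insect flight muscle) had 25 and 32.8 FPKM at day 10, against 45.3, 44.1 and 47.3 FPKM before exposure. LOC412948 and LOC408859, a synthase and a reductase of proline synthesis, fell by 0.50 ± 0.18 and 0.49 ± 0.16 on the log2 scale. LOC409196 (alanine aminotransferase 1) had 17.4 and 20.5 FPKM at day 10 and 36.8, 32.7 and 30.4 FPKM before exposure. Of these 4 only LOC411808 passed with median-of-ratios scaling, and the list held 2 falls without before-exposure replicate 3.

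Solute carriers moved both ways, with 5 of 119 higher (4.20%, against 2.22% of all genes) and 28 lower (23.5%, against 16.9%). With median-of-ratios scaling 14 of the 28 also fell. LOC551263 (monocarboxylate transporter 13) had 24.5 and 18.7 FPKM at day 10, against 2.59, 5.57 and 2.75 FPKM before exposure, and rose by 2.51 ± 0.35. LOC551936, described as a facilitated transporter of trehalose, the blood sugar of insects, had 12.2 and 6.52 FPKM at day 10, against 2.27, 3.79 and 2.37 FPKM before exposure. LOC411110, a riboflavin transporter, rose by 1.5 ± 0.30. Both genes described as the amino acid transporter pathetic passed, in opposite directions. LOC413117 had 6.83 and 7.14 FPKM at day 10, against 1.55, 1.97 and 2.17 FPKM before exposure. LOC410741, the far more abundant one, had 201 and 226 FPKM at day 10, against 501, 334 and 383 FPKM before exposure. Among those that fell, LOC411113 (solute carrier 12 member 4, of the potassium chloride cotransporter family) had 48.3 and 78.7 FPKM at day 10 and 137, 109 and 113 FPKM before exposure. LOC409467 (sodium-coupled monocarboxylate transporter 2) had 19.8 and 30.3 FPKM at day 10 and 48.3, 44.1 and 50.7 FPKM before exposure. The count of transporters that fell was 17 without before-exposure replicate 3.

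Of 30 cytochrome P450s 3 rose and 1 fell, of 24 glutathione S-transferases, UDP-glycosyltransferases and carboxylesterases 3 rose and 3 fell, and of 29 ABC transporters 3 rose and 4 fell. The rises were 10.0%, 12.5% and 10.3%, against 2.22% of all genes, and the falls 3.33%, 12.5% and 13.8%, against 16.9%. With median-of-ratios scaling these lists held 2, 1 and 3 rises and 0, 0 and 2 falls. Their rises numbered 1, 0 and 1 without before-exposure replicate 1, 1 in each list without day 10 replicate 3, and 1, 2 and 2 without before-exposure replicate 3. Their falls numbered 0, 1 and 3 without before-exposure replicate 3, and the ABC transporters held 2 without replicate 1. In some of these genes 1 before-exposure library was raised as well. LOC725051 (multidrug resistance-associated protein 4, an export pump) had 90.8 and 83.4 FPKM at day 10, against 1.93, 14.3 and 3.07 FPKM before exposure. LOC725017, a UDP-glucuronosyltransferase, had 208 and 168 FPKM at day 10, against 0.14, 38.4 and 1.63 FPKM before exposure, and LOC406105 (esterase A2) had 679 and 446 FPKM at day 10, against 4.70, 94.2 and 7.46 FPKM before exposure. In these 3 genes before-exposure replicate 2 was the highest of its group, and the last 2 did not pass with median-of-ratios scaling. LOC112935903, a cytochrome P450 6a14-like gene, showed no such raised library, with 16.6 and 10.9 FPKM at day 10 and 0.41, 0 and 0.41 FPKM before exposure. The transporters LOC409666 and LOC724865, both described as ABC transporter G family member 20, had 53.7 FPKM in each day 10 library and 71.0 and 67.2 FPKM at day 10, against 24, 26.9 and 26 FPKM and 29.2, 43.6 and 43.1 FPKM before exposure. LOC409897, a multidrug resistance-associated protein of the same superfamily, fell to 2.84 and 6.88 FPKM at day 10, against 13, 19.3 and 20.1 FPKM before exposure. GstS1 (glutathione S-transferase S1) fell and LOC410837 (microsomal glutathione S-transferase 1) rose, with 150.1 and 201 FPKM and 153 and 107 FPKM at day 10, against 253, 269 and 276 FPKM and 57.0, 78 and 86.2 FPKM before exposure. GstS1 did not pass with median-of-ratios scaling.

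Of 24 serine proteases, serpins and inhibitors 4 rose (16.7%, against 2.22% of all genes) and 1 fell. Those that rose were LOC113218518 and LOC409143, described above, LOC725202 and LOC725154. LOC725202, a chymotrypsin inhibitor, had 8.24 and 8.90 FPKM at day 10, against 1.61, 0.92 and 0.79 FPKM before exposure. LOC725154 (the protease snake, of the Toll pathway in flies) had 12.1 and 9.76 FPKM at day 10 and 5.0, 5.51 and 4.25 FPKM before exposure. The 1 that fell, LOC411358 (trypsin-1), had 1.80 and 3.51 FPKM at day 10 and 8.27, 8.46 and 6.10 FPKM before exposure. Of 24 immune effector, recognition and signalling genes 3 rose (12.5%) and 2 fell, and neither fall passed with median-of-ratios scaling. Those that rose were Def1, LOC409204 and LOC113218576. LOC409204 (phenoloxidase-activating factor 2, of the cascade that starts melanisation) had 8.17 and 7.26 FPKM at day 10, against 0.59, 0.60 and 1.02 FPKM before exposure. LOC113218576, a lysozyme-like gene, had 11.8 and 12.9 FPKM at day 10 and 6.24, 7.05 and 8.25 FPKM before exposure. The immune list held 1 rise without before-exposure replicate 1 or 2 or day 10 replicate 3, and no fall without before-exposure replicate 3. Yellow genes, relatives of the Mrjp family, gave 3 that rose (37.5%, against 2.22% of all genes) and 1 that fell (12.5%, against 16.9%) of 8. Y-e3 had 6.24 and 10.4 FPKM at day 10, against 1.57, 3.57 and 4.65 FPKM before exposure, and Y-h had 7.44 and 3.94 FPKM at day 10, against 1.41, 1.34 and 0.68 FPKM before exposure. Y-f, the most abundant of the 4, fell to 639.5 and 715 FPKM at day 10, against 980.0, 1023 and 1115 FPKM before exposure. It passed neither with median-of-ratios scaling nor with any 1 of the before-exposure libraries left out. Without day 10 replicate 3 the yellow genes held 1 rise.

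Most voltage-gated channel genes fell at day 10. Of 10 voltage-gated sodium and calcium channel genes, 8 fell, with no rise, 6 of the 8 also with median-of-ratios scaling, and the median was -0.75. Para, the pyrethroid target among sodium channels, had 25.4 and 40.7 FPKM at day 10, against 80.3, 64.3 and 72.0 FPKM before exposure. It fell by 0.96 ± 0.20 on the log2 scale (adjusted p = 0.00602). LOC411653, described as sodium channel protein 60E, had 21.1 and 34.1 FPKM at day 10, against 70.6, 50.8 and 56.1 FPKM before exposure. Cac (cacophony, the calcium channel that triggers transmitter release) had 18.9 and 29.2 FPKM at day 10 and 64.5, 45.9 and 50.04 FPKM before exposure. The 3 genes had the same order of libraries: day 10 replicate 2 lowest, then day 10 replicate 3, with before-exposure replicate 1 highest. Among 19 potassium channel genes there were 14 falls (73.7%) and no rise, and the median was -0.58. With median-of-ratios scaling 6 fell. They include LOC413159 (a sodium-activated channel, subfamily T), with 13.1 and 20.3 FPKM at day 10 and 42.2, 30.8 and 31.1 FPKM before exposure. LOC408343 (Shaker, which repolarises the action potential) had 2.99 and 3.65 FPKM at day 10 and 22.0, 7.17 and 6.82 FPKM before exposure. Before-exposure replicate 1 stood far above the other 2 of its group, and Shaker did not pass with median-of-ratios scaling.

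Pumps and exchangers that restore ion gradients after firing gave 7 of 19 that fell (36.8%, against 16.9% of all genes) and none that rose. With median-of-ratios scaling 4 fell, against 5.95% of all genes. LOC411083, the catalytic alpha subunit of the sodium pump, had 109 and 173 FPKM at day 10, against 286, 196 and 226 FPKM before exposure. LOC551261 (a plasma membrane calcium pump) had 58.9 and 76.6 FPKM at day 10, against 129, 109.6 and 121 FPKM before exposure, and fell by 0.65 ± 0.14 on the log2 scale. LOC412777 (Nckx30C, which exchanges sodium for calcium and potassium) had 4.23 and 9.24 FPKM at day 10, against 27.7, 16.0 and 15.6 FPKM before exposure. The sodium pump subunit did not pass with median-of-ratios scaling, while the other pair did. LOC408908 (anoctamin-8, of a family of chloride channels and lipid scramblases) had 67.2 and 101 FPKM at day 10 and 179, 145 and 173 FPKM before exposure. The count for the pumps was 4 without before-exposure replicate 3.

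Transmitter systems followed, with acetylcholine first. Of 20 genes of acetylcholine receptors and acetylcholinesterases 15 fell and none rose, 5 of the 15 also with median-of-ratios scaling, and the median was -0.65. AChE-2, an enzyme that breaks acetylcholine down, had 18.4 and 35.8 FPKM at day 10, against 83.6, 70.8 and 69.2 FPKM before exposure. LOC412299 (muscarinic receptor DM1) had 25.6 and 47.2 FPKM at day 10, against 84.6, 81.2 and 64.8 FPKM before exposure. The nicotinic subunits nAChRa6 and nAChRa7 were scarcer, with 1.13 and 2.35 FPKM and 3.29 and 5.66 FPKM at day 10, against 5.51, 5.94 and 4.31 FPKM and 12.9, 8.78 and 8.47 FPKM before exposure. In all 4 the groups did not overlap, as in 1325 of the 1326 genes that fell, and nAChRa7 did not pass with median-of-ratios scaling. The count was 6 without before-exposure replicate 1 and 9 without replicate 3.

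Of 32 genes of glutamate, GABA, glycine and histamine transmission 19 fell (59.4%, against 16.9% of all genes) and 2 rose (6.25%, against 2.22%). With median-of-ratios scaling 9 of the 19 also fell, against 5.95% of all genes. LOC408432 (glutamate decarboxylase, which makes GABA) had 27.8 and 41.5 FPKM at day 10, against 93.3, 74.2 and 84.6 FPKM before exposure, and fell by 1.10 ± 0.17 on the log2 scale (adjusted p = 0.00563). Gat-a, a GABA transporter that clears the transmitter, had 7.68 and 13.3 FPKM at day 10, against 32.9, 18.5 and 25.4 FPKM before exposure. Transcripts for synthesis and for uptake of GABA both fell, although Gat-a did not pass with median-of-ratios scaling. Among receptors, LOC411760 (metabotropic glutamate receptor 7) had 0.56 and 1.51 FPKM at day 10 and 6.74, 3.11 and 2.33 FPKM before exposure, and did not pass with that scaling. GluCl (a glutamate-gated chloride channel, the target of ivermectin in invertebrates) had 49.5 and 57.6 FPKM at day 10 and 106, 86.9 and 86.8 FPKM before exposure. The glutamate transporters Eaat-2 and LOC409919 (excitatory amino acid transporter 1), which clear glutamate, fell to 15.2 and 15.5 FPKM and to 39.3 and 54.2 FPKM at day 10, against 27.9, 24.9 and 33.6 FPKM and 85.5, 67.5 and 81.7 FPKM before exposure. Neither of them passed with median-of-ratios scaling.

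Both vesicular glutamate transporter genes with a call, which load glutamate or related anions into vesicles, rose in place of falling. LOC725462 (2.1) had 39.8 and 29.4 FPKM at day 10, against 10.6, 10.9 and 3.97 FPKM before exposure, a change of 2.18 ± 0.42. LOC412220 (2.2) had 7.86 and 9.18 FPKM at day 10, against 4.13, 3.89 and 4.99 FPKM before exposure, a change of 1.01 ± 0.21. Beside them, LOC411186, described as synaptic vesicle glycoprotein 2C, had 13.5 and 17.6 FPKM at day 10, against 0.88, 1.87 and 0.93 FPKM before exposure. The transmission list held 1 rise without before-exposure replicate 1 or day 10 replicate 3. LOC411186 was the only gene of the 48 in the synaptic vesicle, active zone and exocytosis list that rose. In that list 26 fell (54.2%, against 16.9% of all genes). The descriptions of these 3 come from sequence likeness, and solute carriers so named also act outside synapses.

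Of the 26 synaptic genes that fell, 15 also passed with median-of-ratios scaling, and the list median was -0.41. brp (bruchpilot, the scaffold of the active zone) had 8.81 and 13.8 FPKM at day 10, against 35.7, 30.8 and 30.4 FPKM before exposure, and fell by 1.28 ± 0.19 on the log2 scale. LOC551737 (synapsin, which tethers vesicles in reserve) had 44.1 and 87.7 FPKM at day 10, against 172, 152 and 142 FPKM before exposure. Synapsin in day 10 replicate 3 was nearly 2-fold above replicate 2 and still below all 3 before-exposure libraries. Such a lack of overlap held in 1325 of the 1326 genes that fell. The postsynaptic adhesion proteins LOC410779 (neuroligin 2) and NLG-4 (neuroligin 4) fell by 1.26 ± 0.26 and 0.96 ± 0.21 on the log2 scale. Neuroligin 2 had 7.75 and 14.7 FPKM at day 10 and 29.9, 29.5 and 32.7 FPKM before exposure.

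**Figure D4:**
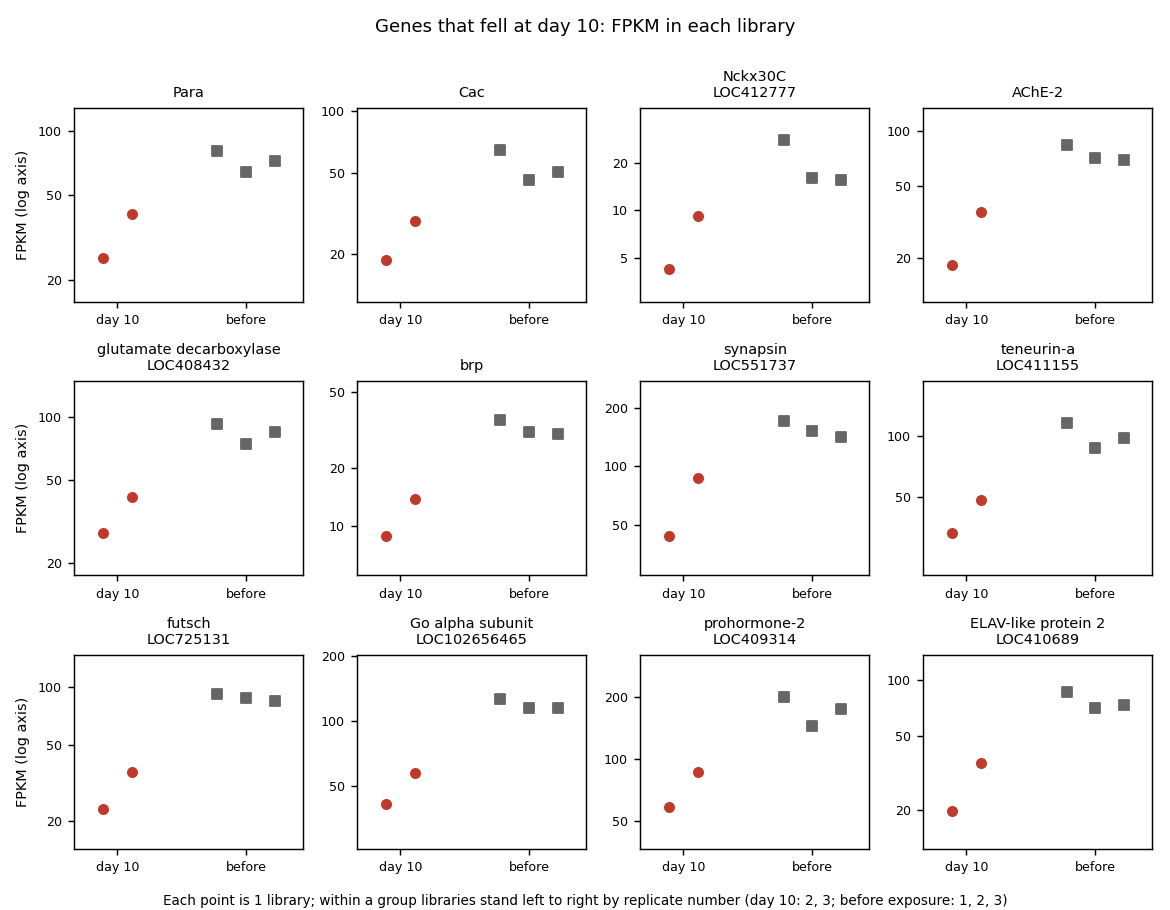
FPKM on a log axis of 12 genes of excitability, transmission, adhesion and signalling that fell, with the 2 day 10 libraries (red) left of the 3 before-exposure libraries (grey) in each panel. The 12 were drawn from genes whose groups do not overlap, so in all of them both day 10 values lie below the lowest before-exposure value. Replicate 2 is the lower of the day 10 libraries in each.

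Adhesion and axon guidance genes, which wire neurons to each other during growth and hold synapses in adults, gave the largest count of falls among the neuronal lists. Of 77 genes 42 fell (54.5%, against 16.9% of all genes) and none rose. With median-of-ratios scaling 22 fell, against 5.95% of all genes. The list median was -0.50, with -0.65 in day 10 replicate 2 and -0.39 in replicate 3, and 70 of the 77 genes lay below the median gene. LOC411155 (teneurin-a, a partner across synapses) had 33.4 and 48.3 FPKM at day 10, against 115, 86.8 and 96.9 FPKM before exposure, and fell by 1.10 ± 0.18 on the log2 scale. LOC411176 (neurotrimin, an immunoglobulin-type adhesion protein) had 8.94 and 11.1 FPKM at day 10, against 36.4, 21.6 and 26.6 FPKM before exposure. LOC408554 (a neural cadherin) had 5.09 and 6.62 FPKM at day 10, against 22.7, 11.9 and 14.1 FPKM before exposure, and LOC410368 (cadherin-23) had 10.7 and 22.2 FPKM at day 10, against 39.2, 44.2 and 40.5 FPKM before exposure. In the first 3 of these genes before-exposure replicate 1 stood highest, and in the last the 3 lay close together. The count of falls was 27 without before-exposure replicate 1, 39 without replicate 2 and 32 without replicate 3.

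Of 66 microtubule, kinesin and dynein genes 14 fell and none rose, a share of 21.2%, near the 16.9% of all genes, and 5 fell with median-of-ratios scaling. LOC725131 (futsch, which bundles axonal microtubules and is the fly relative of MAP1B) had 23.0 and 36.1 FPKM at day 10, against 92.1, 87.3 and 84.8 FPKM before exposure. It fell by 1.40 ± 0.16 on the log2 scale, with the smallest adjusted p of any described gene that fell (0.00202). LOC409539 (microtubule-associated protein 2) had 27.6 and 46.6 FPKM at day 10, against 79.6, 64.8 and 63.2 FPKM before exposure. LOC413837 (kinesin 3B, a motor that carries cargo along axons) had 162 and 219 FPKM at day 10, against 395, 344 and 347 FPKM before exposure. Of 53 actin, spectrin and ankyrin genes 14 fell (26.4%, against 16.9% of all genes). With median-of-ratios scaling 6 of the 14 also fell, against 5.95% of all genes. LOC406139 (ankyrin-3, which anchors channels in the membrane) had 15.8 and 20.9 FPKM at day 10 and 42.7, 30.6 and 32.8 FPKM before exposure, and did not pass with that scaling. LOC408677 and LOC724192, both described as titin, fell by 0.79 ± 0.16 and 0.50 ± 0.14 on the log2 scale. The muscle protein flightin had 0.28 and 0.14 FPKM at day 10 and 0.42, 0.36 and 0.37 FPKM before exposure.

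Genes of G protein signalling were among those that fell. LOC102656465, the Go alpha subunit, which is dense in nerve tissue, had 41.4 and 57.8 FPKM at day 10, against 126, 114 and 115 FPKM before exposure, and fell by 1.08 ± 0.16 on the log2 scale (adjusted p = 0.00496). LOC410497, the beta subunit of a G protein, had 3.00 and 11.7 FPKM at day 10, against 38.1, 22.5 and 28.3 FPKM before exposure. LOC725485 (regulator of G-protein signaling 11) had 14.2 and 27.1 FPKM at day 10, against 57.1, 46.4 and 42.0 FPKM before exposure. All 3 had replicate 2 as the lower day 10 library. They belong to a list of 70 regulators of small GTPases and G proteins, with 24 falls (34.3%, against 16.9% of all genes), no rise and a median of -0.22. With median-of-ratios scaling 11 fell and 1 rose, and without before-exposure replicate 3 as deposited 16 fell. Of 38 amine, peptide and other G protein-coupled receptors 18 fell (47.4%) and none rose. With median-of-ratios scaling 6 of the 18 also fell, against 5.95% of all genes. LOC411420 (adenosine receptor A2b) had 0.84 and 3.79 FPKM at day 10, against 14.2, 16.5 and 13.9 FPKM before exposure. Oa1 (an octopamine receptor, octopamine being the arousal amine of insects) had 2.85 and 3.69 FPKM at day 10 and 10.8, 7.01 and 8.64 FPKM before exposure. The receptor count was 9 without before-exposure replicate 1 and 11 without replicate 3.

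Second messenger genes gave 19 of 53 that fell (35.8%, against 16.9% of all genes) and 2 that rose. With median-of-ratios scaling 6 fell. LOC408809 (diacylglycerol kinase theta, which ends diacylglycerol signals) had 52.8 and 81.0 FPKM at day 10, against 191, 139 and 136 FPKM before exposure. LOC408721 (neurocalcin, a calcium sensor of neurons) had 28.7 and 32.1 FPKM at day 10, against 64.0, 61.8 and 54.7 FPKM before exposure. LOC552209 (neo-calmodulin) had 12.3 and 25.5 FPKM at day 10, against 38.8, 50.9 and 34.8 FPKM before exposure. The pair that rose were LOC724471 (a phospholipase C, which makes diacylglycerol), with 33.5 and 26.7 FPKM at day 10 and 7.89, 15.3 and 17.5 FPKM before exposure, and LOC100576901 (cGMP-dependent protein kinase 1). The kinase had 4.06 and 4.13 FPKM at day 10 and 1.52, 2.88 and 1.94 FPKM before exposure, and the foraging gene of bees and flies encodes a kinase of this kind. Neither of the pair passed without before-exposure replicate 1 or without day 10 replicate 3. Of 148 protein kinases 43 fell (29.1%) and 2 rose (1.35%, against 2.22% of all genes). With median-of-ratios scaling 13 fell, and as deposited none rose without before-exposure replicate 1 or 3. LOC413633 (BRSK2, of a family that sets neuronal polarity) had 5.21 and 8.65 FPKM at day 10, against 25.2, 17.2 and 18 FPKM before exposure. Of 42 phosphatases 8 fell (19.0%, near the 16.9% of all genes), and 4 with median-of-ratios scaling. Among them LOC413569 (Lar, a receptor phosphatase of axon guidance) had 12.3 and 16.7 FPKM at day 10 and 34.6, 23.8 and 27.4 FPKM before exposure. The kinase count was 26 without before-exposure replicate 3 and the phosphatase count 5 without replicate 1.

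Neuropeptide precursors and processing enzymes gave 12 of 22 that fell (54.5%, against 16.9% of all genes) and none that rose. With median-of-ratios scaling 4 of the 12 also fell, against 5.95% of all genes. LOC409314 (prohormone-2) had 58.5 and 86.5 FPKM at day 10, against 201, 144 and 175 FPKM before exposure. LOC113218809 (diuretic hormone class 2) had 27.6 and 31.1 FPKM at day 10, against 54.7, 61.3 and 62.1 FPKM before exposure. LOC726377 (eclosion hormone, which triggers moulting behaviour) had 2.91 and 3.94 FPKM at day 10 and 9.18, 8.95 and 9.96 FPKM before exposure. LOC411396 (neprilysin-4, a peptidase that can inactivate neuropeptides) fell as well, by 1.06 ± 0.16 on the log2 scale, with 59.8 and 79.3 FPKM at day 10 and 187, 158 and 148 FPKM before exposure. The count of the list was 6 without before-exposure replicate 3.

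Hormone signalling genes gave 13 of 31 that fell (41.9%, against 16.9% of all genes) and none that rose. With median-of-ratios scaling 4 of the 13 also fell, against 5.95% of all genes. The ecdysone cascade is a chain of transcription factors first known from insect metamorphosis and still expressed in the adult brain. LOC408586 (the nuclear receptor HR3) had 3.79 and 6.91 FPKM at day 10, against 17.8, 11.4 and 13.8 FPKM before exposure. Br-c (broad-complex) had 8.57 and 11.9 FPKM at day 10, against 26.3, 19.2 and 19.2 FPKM before exposure. LOC102655661 (an E74-like factor) had 3.60 and 4.12 FPKM at day 10 and 8.45, 7.80 and 7.58 FPKM before exposure. The 3 genes fell by 1.12 ± 0.24, 0.83 ± 0.20 and 0.70 ± 0.18 on the log2 scale. The count of the list was 6 without before-exposure replicate 1 or replicate 3. Of 7 circadian clock genes 2 fell (28.6%, against 16.9% of all genes) and 1 rose (14.3%, against 2.22%). Per (period) had 6.24 and 7.30 FPKM at day 10, against 10.4, 17.5 and 16.7 FPKM before exposure, and LOC411534 (clock, its activator) had 15.8 and 20.3 FPKM at day 10, against 30.6, 26.3 and 26.2 FPKM before exposure. Clock did not pass with median-of-ratios scaling. LOC409602, described as circadian clock-controlled protein, rose, with 94.2 and 79.7 FPKM at day 10, against 37.5, 45.5 and 67.7 FPKM before exposure (adjusted p = 0.0192), although no gene of this list rose without before-exposure replicate 1. The labels give no hour of sampling, so its part in these clock values was not tested.

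Of 92 homeobox, basic helix-loop-helix, forkhead and POU factors 25 fell and 1 rose (27.2% lower, against 16.9% of all genes), and 9 fell with median-of-ratios scaling. LOC552619 (onecut, a marker of differentiated neurons in flies) had 4.80 and 7.94 FPKM at day 10, against 19.5, 14.5 and 14.2 FPKM before exposure, and LOC406073 (prospero, of neural differentiation) had 7.47 and 5.85 FPKM at day 10 and 18.2, 11.5 and 13.2 FPKM before exposure. Prospero did not pass with median-of-ratios scaling. The 1 that rose, LOC100576700 (class A basic helix-loop-helix protein 15, a factor of secretory cells in mammals), had 18.6 and 18.5 FPKM at day 10, against 8.15, 7.45 and 6.12 FPKM before exposure. Of 95 chromatin regulators 31 fell and none rose, 12 of them also with median-of-ratios scaling, with a median of -0.22. LOC551071 (BAZ2B, a bromodomain protein) had 4.16 and 9.58 FPKM at day 10, against 24.4, 16.5 and 16.4 FPKM before exposure. LOC409501 (SMARCC2, of the SWI/SNF remodelling complex) had 4.77 and 4.21 FPKM at day 10 and 14.6, 9.49 and 6.54 FPKM before exposure, with an adjusted p of 0.0479, and did not pass with that scaling. The factors and the chromatin genes that fell numbered 16 each without before-exposure replicate 1, and the chromatin genes 19 without replicate 3. LOC550677 (described as mab-21, a regulator of development) rose by 2.03 ± 0.29, with 43.0 and 35.7 FPKM at day 10 and 9.85, 12 and 8.79 FPKM before exposure.

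RNA-binding and splicing factors gave 28 of 137 that fell and 3 that rose, a share of 20.4% against 16.9% of all genes. With median-of-ratios scaling 12 fell and 6 rose. LOC410689 (ELAV-like protein 2, a neuronal stabiliser of mRNA) had 19.7 and 35.9 FPKM at day 10, against 86.2, 71.3 and 74 FPKM before exposure. LOC408298 (pumilio homolog 2, a translational repressor) had 8.10 and 10.4 FPKM at day 10, against 27.1, 19.0 and 19.6 FPKM before exposure. LOC410353, a CUGBP Elav-like splicing factor, had 9.39 and 16.1 FPKM at day 10, against 29.5, 26.5 and 26.8 FPKM before exposure. LOC552709 (polypyrimidine tract-binding protein 2), outside that list, had 6.74 and 9.42 FPKM at day 10, against 21.3, 19.5 and 18.6 FPKM before exposure. No groups overlapped in these 4, as in 1325 of the 1326 genes that fell. LOC551587 (RNA-binding protein 24) rose by 1.5 ± 0.30, with 13.5 and 13.8 FPKM at day 10 and 4.38, 4.92 and 5.33 FPKM before exposure. LOC411778 (RNA-binding protein 8A, of the exon junction complex) rose by 0.72 ± 0.16. The falling count was 14 without before-exposure replicate 3, and 1 gene rose without replicate 1.

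Ubiquitin, sorting and nuclear transport genes stood near or under the background of falls. Of 131 E3 ligases and ubiquitin hydrolases 21 fell and 2 rose, 16.0% lower against 16.9% of all genes. With median-of-ratios scaling 7 fell and 2 rose, and as deposited none rose without before-exposure replicate 1 or 3 or day 10 replicate 3. LOC411536 (the E3 ligase HERC2) had 19.4 and 29.5 FPKM at day 10, against 47.6, 49.6 and 46.1 FPKM before exposure. LOC551203 (MYCBP2, the highwire ligase that limits synapse growth in flies) had 6.58 and 9.60 FPKM at day 10 and 17, 15.2 and 16.4 FPKM before exposure. Of 112 Rab, endosome and vesicle sorting genes 9 fell and 2 rose, and with median-of-ratios scaling none fell and 4 rose. LOC411260 (Rab-27A, of regulated secretion) had 47.0 and 33.4 FPKM at day 10, against 18.4, 22.7 and 15.3 FPKM before exposure, and rose by 1.23 ± 0.24. LOC409435 (the clathrin adaptor LAP, which retrieves synaptic vesicle membrane) had 74.7 and 102 FPKM at day 10, against 156, 137 and 142 FPKM before exposure, and did not pass with that scaling. Of 41 nuclear pore and transport genes 8 fell, 1 of them also with median-of-ratios scaling. Without before-exposure replicate 3 the falls of these 3 lists numbered 14, 5 and 5, without replicates 1 and 2 the ligases numbered 12 and 13, and without day 10 replicate 3 the sorting genes numbered 15. Of 92 DNA replication and cell cycle genes 5 fell and none rose, with 1 lower under median-of-ratios scaling and 2 and 3 lower without before-exposure replicates 1 and 3. Of 22 histone genes 1 rose, LOC725344 (H2B), to 17.2 and 19.2 FPKM at day 10, against 2.07, 5.98 and 2.45 FPKM before exposure.

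**Figure D5:**
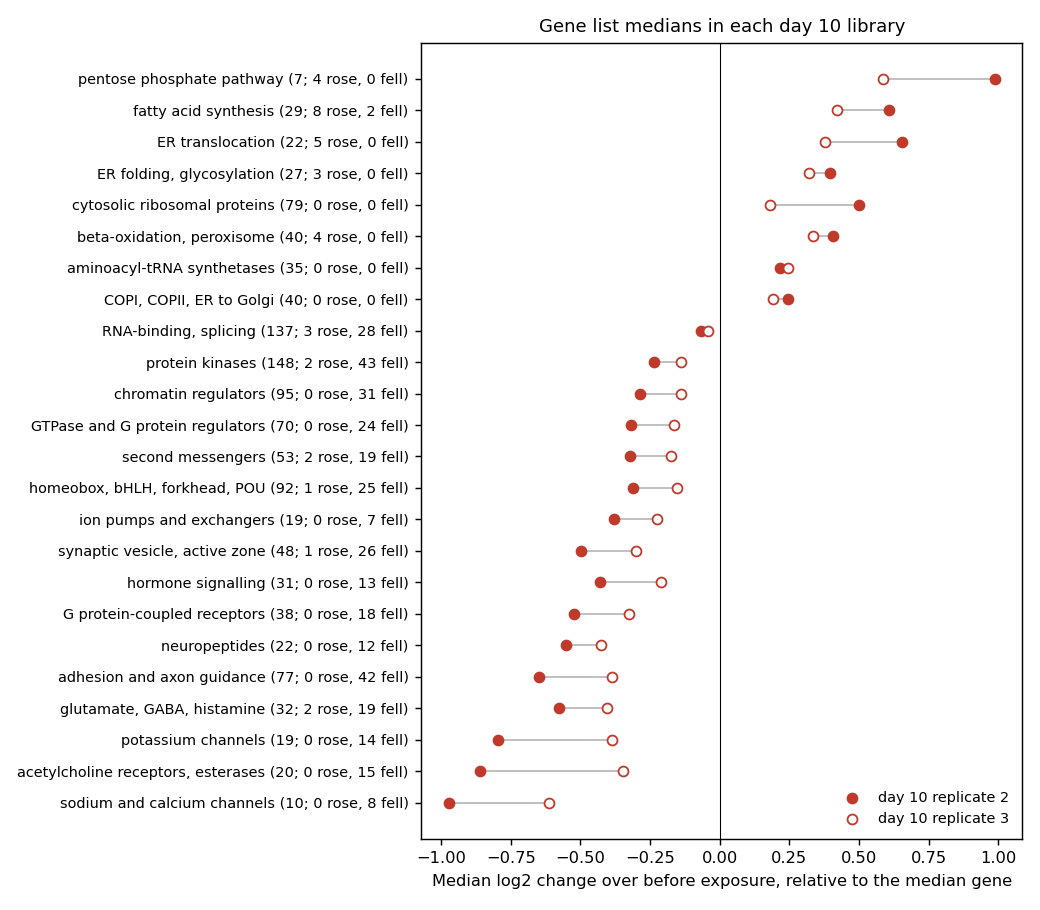
Median log2 change relative to the median gene of 24 gene lists, in day 10 replicate 2 (filled red circles) and replicate 3 (open red circles), each against the mean of the 3 before-exposure libraries. Adhesion, synaptic, receptor and channel lists lie below 0 and secretory, lipid and translation lists above it in both libraries; beside each name stand the number of genes and how many rose and fell.

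Over the 70 lists the medians of 31 lay below the median gene and of 39 above it, and 7 lists held no call. The sign of the median was the same with median-of-ratios scaling in all 70, and it differed between the day 10 libraries in 5. In 59 lists the median lay farther from 0 in day 10 replicate 2. Of the 1326 genes that fell 816 were in no list, and 83 of the 174 that rose.

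The share of genes that fell differed with the abundance of the gene. Among 1356 genes with a mean of 2 to 5 FPKM, 5.01% fell and the median relative change was 0.13. Among 1567 genes of 20 to 50 FPKM, 31.8% fell and the median was -0.13. Both day 10 libraries showed this, with medians of 0.14 and 0.13 in the lower class and of -0.14 and -0.09 in the higher. Above 500 FPKM the picture turned, since 14.0% of 57 genes rose and 15.8% fell. A fixed pseudocount shrinks the changes of scarce genes, and its part in this order was not tested.

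Some abundant genes stood out by their gap between the 2 day 10 libraries, and they are given as levels. LOC725114, a chymotrypsin inhibitor, had 2201 and 283 FPKM at day 10, against 135, 124 and 174 FPKM before exposure. In 3 heat shock genes day 10 replicate 2 was far below replicate 3, whereas the whole list of 53 heat shock and chaperone genes had a median change of 0.0095 in replicate 2 and 0.24 in replicate 3. LOC410620 (Hsp70Ab-like) had 75 and 312 FPKM at day 10 and 243, 392 and 229 FPKM before exposure, and Hsp90 had 311 and 1155 FPKM at day 10 and 526, 818 and 631 FPKM before exposure. LOC411700 (heat shock protein 83) followed them, with 22.8 and 80.5 FPKM at day 10 and 33.9, 65.6 and 41.2 FPKM before exposure. LOC102653899, a cytochrome P450 6a13 gene, had 43.6 and 10.4 FPKM at day 10, above 0.14, 1.61 and 0.09 FPKM before exposure. LOC408722 and LOC409073 varied widely before exposure too. LOC408722, a sodium pump beta subunit, had 2.91 and 41.1 FPKM at day 10 and 0.11, 55.1 and 24 FPKM before exposure, and LOC409073 (equilibrative nucleoside transporter 4) was listed at 0 and 48.4 FPKM at day 10 and 86.2, 80.5 and 16.5 FPKM before exposure. LOC406142 (hymenoptaecin, an antibacterial peptide) had 6.64 and 37.7 FPKM at day 10, against 4.20, 14.3 and 535 FPKM before exposure, where 1 library stood far above the other 4.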

How the data were processed

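Brain mRNA was measured by RNA-seq, and the deposited table gives FPKM per gene and library, rounded to 2 decimals, as deposited by the authors. The tools listed in the submitters' processing notes are fastp 0.18.0 and HISAT2 2.1.0, and also StringTie; their roles are not stated. The sources used here do not give the genome build, the annotation or the use of strand, so overlapping genes may share fragments, and no sequences or coordinates are given. Of 12 FPKM columns 1 was not used, because no sample in the labels matched its name. That name has the form of the day 10 columns, with replicate number 1. The labels do not say whether it is another day 10 library. Genes carry the symbols and descriptions of the table.

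The test, on log2(FPKM + 1) values that shrink the changes of scarce genes, was made by limma 3.58.1 (R 4.3.3) with a mean-variance trend. The model held 4 group means over all 11 libraries, which leaves 7 residual degrees of freedom, with Benjamini-Hochberg adjustment over 7830 genes. An exact permutation test of 2 against 3 libraries cannot go below 0.1, so none was used. Gene lists (70) were matched by words in symbols and descriptions, and a gene can be in several. Lists got no test, only counts and medians beside those of all genes. The lists and the genes named were chosen with earlier results of these data known. Named genes are the 15 with the largest change in each direction whose groups do not overlap and whose higher group averages 5 FPKM or more. They are also the 10 with the smallest adjusted p in each direction, up to 4 called members of each list in each direction (or 2 with the smallest p where none was called), and the 10 most abundant at day 10. The rule adds Para, the 10 with the largest share of the summed difference and the 8 abundant ones that differed most within day 10. Syt1, LOC408934, LOC411597, GlnS and melittin are tissue markers, and LOC724936 was named after its values were seen. Relative depth was estimated from genes at 0.2 to 1.5 FPKM, taking genes with equal fragment numbers in 2 libraries to share 1 FPKM ratio. The depths were those that put most genes at such ratios over 55 pairs of libraries, so an excess there cannot check them. Such ratios were more than 1.5 times as frequent as nearby ones in 48 pairs and held 2.91% of gene pairs. Of 300 starts 36 reached the best fit. FPKM give no counting error, so precision comes from the spread between libraries. Alternatives were other pseudocounts, filters, scalings, libraries and a replicate block.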

Additional observations from a re-analysis of the deposited data

How the results depend on the processing

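Counts of genes that rose and fell depended on the scaling. Against 174 and 1326 as deposited, limma called 311 and 466 with median-of-ratios scaling, 313 and 549 with quantile normalization, 313 and 524 with libraries centred on their median, and 2164 falls with a common sum without the Mrjp genes. Higher genes were 11.6% of the calls as deposited, 40.0% with median-of-ratios scaling and 5.67% with that common sum. With only the 5 libraries of the contrast in the fit 756 fell. Leaving out 1 library gave between 0 and 189 rises and between 2 and 1503 falls, the lowest of both without day 10 replicate 2 (1288 genes at an unadjusted p under 0.05). Leaving out before-exposure replicate 2 gave 189 rises and 1024 falls. Total calls without each of the other libraries of the contrast are given in the report. Deviations of same-numbered libraries of the contrast from their group means correlated at 0.10 and -0.15. The 2 day 10 libraries mirror each other around their mean, so these values cannot show whether the replicate number pairs libraries. Same-numbered day 10 libraries correlated at 0.313 and 0.307 with day 30, and at -0.161 and -0.241 with day 20. With the replicate number as a block 147 rose and 1073 fell, and with the block and median-of-ratios scaling 196 rose and 229 fell. The causes were not tested.

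Of 150 named genes that passed, 126 passed with median-of-ratios scaling, 125 with quantile normalization, 131 with only the 5 libraries and 2 without day 10 replicate 2, and none reversed under any of the 17 alternatives run. The number of lists with a median below the median gene was 31 as deposited and stayed within 1.5 times that under both scalings and in each day 10 library. The gap in median change between genes of 20 to 50 FPKM and of 2 to 5 FPKM was -0.25 as deposited and -0.21 with median-of-ratios scaling, the cause not tested. Counts of lists without single libraries were added after seeing the data. Changes by protein length and promoter content were not run.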
